A study of Rattus norvegicus with 22 samples.

Results

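The 5 genes described here are Adcy1, Unc5d, Mcc, Amer1 and Piezo2, which the study of penetrating ballistic-like brain injury (PBBI) in the rat linked to rapid eye movement (REM) sleep. They were taken by name, and their symbols were paired with 5 of the 32545 Ensembl gene identifiers of the count data. All of them come from the study's list of genes whose level in the contralateral hemisphere fell with more time in REM sleep, with injury in the model. The contralateral samples therefore chose the genes. The ipsilateral samples come from the same rats, so they are not independent of that choice. Time asleep in each rat was not analysed here.

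Adcy1 (ENSRNOG00000059479) encodes a calmodulin-stimulated adenylyl cyclase of neurons, which turns calcium entry into cyclic AMP and takes part in synaptic plasticity. Unc5d (ENSRNOG00000011858) encodes a receptor of the UNC5 family, known from netrin and FLRT signaling in migrating neurons and growing axons. Mcc (ENSRNOG00000011271) and Amer1 (ENSRNOG00000007984) are both known as restraints on Wnt signaling, and Amer1 binds the APC protein of the complex that marks beta-catenin for destruction. Piezo2 (ENSRNOG00000038784) encodes a mechanically gated cation channel that is best known from touch and body-position neurons. As a set the genes share neither a pathway nor a protein family.

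Cortical tissue was collected from both hemispheres of 11 adult male Sprague-Daley rats (the spelling of the labels) 24 h after surgery, which gave 22 libraries. The titles of both libraries of PBBI rat 81 and of the contralateral library of sham rat 82 carry the letters PFC, and the other titles do not. Whether the tissue of these libraries differed was not tested. In 6 rats a probe with an inflatable balloon was driven into the right frontal brain (PBBI), and 5 sham rats had the same procedures without insertion of the probe. The groups were PBBI ipsilateral (n = 6), sham ipsilateral (n = 5), PBBI contralateral (n = 6) and sham contralateral (n = 5). All rats, sham included, carried implanted EEG and EMG electrodes and were recorded for 24 h, and no rat without surgery was among the samples, so a value in sham is not that of an untouched brain. Total counts per library were between 42085341 and 63412426. In a bulk sample such as these, fewer neurons and less RNA per neuron cannot be told apart.

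Levels are given as TMM-normalized CPM, in which the counts of a gene are scaled to the size of its library. The levels of all 5 genes differed far more between rats than between groups. Adcy1 ranged from 0.271 CPM (12 counts) in the ipsilateral sample of PBBI rat 85 to 171 CPM (10569 counts) in the contralateral sample of sham rat 91, a 632-fold range. Unc5d ranged from 0.678 CPM (30 counts) to 23.9 CPM (1477 counts), with the same libraries at the ends. Mcc and Amer1 had 0 counts in the ipsilateral sample of rat 85, where a floor of 3 counts stands at 0.0678 CPM. The highest level was 4.75 CPM (330 counts) for Mcc, in the ipsilateral sample of PBBI rat 88, and 4.196 CPM (259 counts) for Amer1, in the contralateral sample of sham rat 91. Piezo2 lay between 0.0226 CPM (1 count) in the ipsilateral sample of rat 85 and 3.34 CPM (233 counts) in that of PBBI rat 90. The SD of log2 CPM over the 22 libraries was 1.93 for Adcy1, 1.34 for Unc5d, 1.54 for Mcc, 1.49 for Amer1 and 1.25 for Piezo2. These SDs were larger than those of 99.3%, 94.9%, 97.7%, 97.2% and 92.9% of the genes tested, respectively.

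Per kilobase of the gene length in the count data, the order of mean levels over the 22 libraries was Adcy1 (12.6 CPM per kb), Unc5d (1.80), Mcc (0.643), Amer1 (0.396) and Piezo2 (0.101). Adcy1 stood above Unc5d in 21 of 22 libraries, Unc5d above Mcc in 20, Mcc above Amer1 in 20 and Amer1 above Piezo2 in 21. The ranges of neighbors in this order overlapped for each of these pairs, so the order held within most libraries but not between libraries.

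Adcy1 was the most abundant of the genes and the one with the clearest difference between hemispheres. In the ipsilateral PBBI samples it had 6.02 CPM in rat 81, 28.1 in rat 83, 0.271 in rat 85, 51.4 in rat 88, 56.9 in rat 90 and 22.6 in rat 96. In the ipsilateral sham samples it had 41.97 CPM in rat 82, 20.99 in rat 84, 16.2 in rat 86, 105 in rat 91 and 19.4 in rat 94. Rats 81 and 85 lay below every sham rat and the other 4 PBBI rats lay within the sham range. Contralaterally it had 23.1 CPM in PBBI rat 81, 59.0 in rat 83, 15.2 in rat 85, 119 in rat 88, 66.2 in rat 90 and 56.1 in rat 96. The contralateral sham values were 27.3 CPM in rat 82, 26.9 in rat 84, 20.2 in rat 86, 171 in rat 91 and 3.84 in rat 94. The mean was 27.5 CPM ± 23.1 (SD, n = 6) for PBBI ipsilateral, 40.6 ± 37.1 (SD, n = 5) for sham ipsilateral, 56.5 ± 37.1 (SD, n = 6) in PBBI contralateral and 49.9 ± 68.5 (SD, n = 5) in sham contralateral. Each of these SDs was close to or above its mean, except in PBBI contralateral.

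Unc5d varied with a similar pattern at a lower level. The ipsilateral PBBI values were 0.877 CPM in rat 81, 3.73 in rat 83, 0.678 in rat 85, 3.32 in rat 88, 8.70 in rat 90 and 7.64 in rat 96. The ipsilateral sham values were 8.09 CPM in rat 82, 3.19 in rat 84, 2.00 in rat 86, 12.5 in rat 91 and 2.42 in rat 94. As for Adcy1, rats 81 and 85 were below all sham rats. The contralateral PBBI values ran from 1.25 CPM in rat 85 to 9.65 in rat 90, with a median of 6.19, and 4 of the contralateral sham values lay between 0.965 and 3.94 CPM while rat 91 had 23.9.

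Mcc was higher ipsilaterally in 4 PBBI rats than in any sham rat. It had 1.13 CPM in PBBI rat 81, 2.20 in rat 83, 0 in rat 85, 4.75 in rat 88, 4.32 in rat 90 and 4.25 in rat 96, against 1.92 in sham rat 82, 0.570 in rat 84, 0.374 in rat 86, 2.06 in rat 91 and 1.18 in rat 94. The groups overlapped through rats 81 and 85, and rat 85 lay under all sham rats. Contralaterally Mcc lay between 0.796 and 2.56 CPM in PBBI, and between 0.506 and 1.06 CPM in sham except for rat 91 at 3.55 CPM.

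Amer1, the other regulator of Wnt signaling, had nearly the same ipsilateral mean with and without injury. It was 1.23 CPM ± 0.891 (SD, n = 6) with PBBI, and the 5 sham rats had 1.23 ± 0.942 (SD, n = 5). Its ipsilateral values in PBBI were 0.345 CPM in rat 81, 1.499 in rat 83, 0 in rat 85, 1.35 in rat 88, 1.92 in rat 90 and 2.29 in rat 96, and those in sham were 2.06 in rat 82, 0.722 in rat 84, 0.214 in rat 86, 2.39 in rat 91 and 0.773 in rat 94. Apart from rat 85, the PBBI rats lay within the sham range. Contralaterally it ranged from 0.588 to 2.67 CPM in PBBI and from 0.506 to 4.196 CPM in sham.

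Piezo2 had the fewest counts for its length, between 1 and 233 counts ipsilaterally and between 6 and 122 contralaterally. In the ipsilateral PBBI samples it had 0.392 CPM in rat 81, 0.911 in rat 83, 0.0226 in rat 85, 0.547 in rat 88, 3.34 in rat 90 and 1.83 in rat 96. In the ipsilateral sham samples it had 0.7003 CPM in rat 82, 0.209 in rat 84, 0.454 in rat 86, 1.24 in rat 91 and 0.477 in rat 94. Rats 90 and 96 lay above every sham rat. For none of the 5 genes did the levels of PBBI and sham rats separate in either hemisphere, which they did for 4.63% of 16587 genes ipsilaterally and 0.205% contralaterally. The contralateral PBBI values were close together, 0.766 CPM ± 0.160 (SD, n = 6), while the contralateral sham values were 0.674 ± 0.743 (SD, n = 5), again with rat 91 highest at 1.98 CPM.

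**Figure D1:**
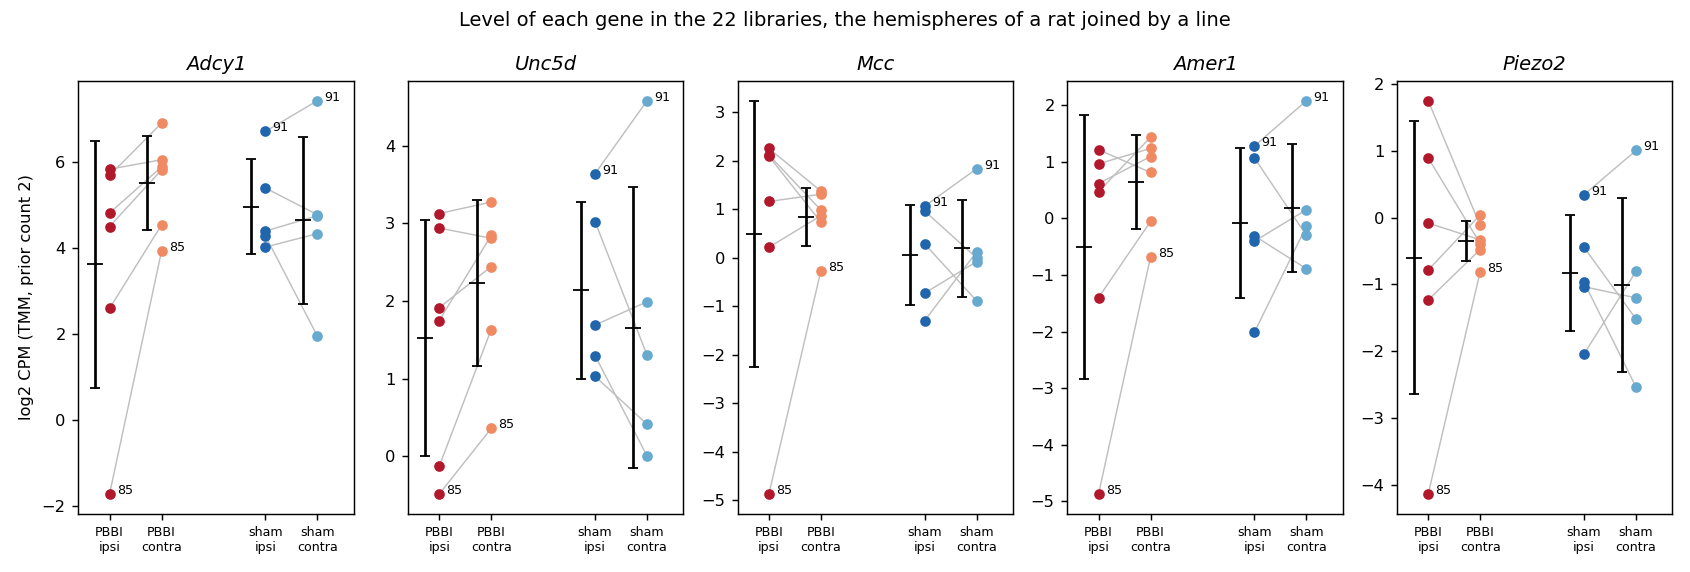
Log2 CPM (TMM, prior count of 2) of the 5 genes, 1 panel each, in the 4 groups of 6, 6, 5 and 5 libraries. Points are libraries, gray lines join the hemispheres of a rat, black bars are mean ± SD, and rats 85 and 91 are numbered. The ipsilateral library of PBBI rat 85 is the lowest point in every panel, and the contralateral library of sham rat 91 is the highest in the panels of Adcy1, Unc5d and Amer1.

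PBBI was first compared with sham in each hemisphere, with the quasi-likelihood test of edgeR and Benjamini-Hochberg adjustment over all genes tested. All 5 genes passed the filter on low counts in each comparison. None of them passed an adjusted p of 0.05 ipsilaterally, where 4.68% of 16104 genes did, and none had an unadjusted p under 0.05, where 16.9% of all genes did. The ipsilateral log2 fold changes (PBBI over sham) were -0.56 for Adcy1 (standard error, SE, 0.87, edgeR adjusted p = 0.860), -0.44 for Unc5d (SE 0.69), 1.18 for Mcc (SE 0.87, edgeR adjusted p = 0.595), -0.00010 for Amer1 (SE 0.85) and 0.93 for Piezo2 (SE 0.81). With standard errors of this size, neither a change of 2-fold in either direction nor its absence was detectable. Exact permutation of the treatment among the 11 rats (two-sided, difference of mean log2 CPM) gave p = 0.418 for Adcy1, 0.483 for Unc5d, 0.794 for Mcc, 0.766 for Amer1 and 0.831 for Piezo2, where the smallest possible p is 0.00433. Without PBBI rat 85 the edgeR log2 fold change of Mcc was 1.47 (SE 0.50, edgeR adjusted p = 0.0654). Limma voom with sample quality weights called Mcc (1.93, adjusted p = 0.0370), in a fit that called 31.1% of all genes.

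Contralaterally, none of the 5 passed, and edgeR called 0% of 15907 genes (2.30% had an unadjusted p under 0.05, and DESeq2 called 3 genes). The log2 fold changes were 0.19 for Adcy1 (SE 0.73), -0.21 for Unc5d (SE 0.74), 0.42 for Mcc (SE 0.45), 0.21 for Amer1 (SE 0.54) and 0.18 for Piezo2 (SE 0.52), each with an adjusted p of 1.00 from edgeR. These values depended on single sham rats. For each of the 5 genes sham rat 91 lay far above the other 4 contralateral sham rats, as it did for 2.85% of 16587 genes. Without it, all 5 genes were higher in PBBI, by 1.53 on the log2 scale for Adcy1 (SE 0.58), 1.36 for Unc5d (0.53), 1.12 for Mcc (0.36), 1.08 for Amer1 (0.43) and 1.12 for Piezo2 (0.39). All 5 then had an unadjusted p between 0.00825 and 0.0243 in edgeR, where 6.50% of all genes had one under 0.05, and all had an adjusted p of 0.693. Without sham rat 94 instead, 4 of the 5 were lower in PBBI and 1 was higher, with a median log2 fold change of -0.069. This hemisphere chose the genes, so their shared direction without rat 91 is no independent evidence.

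Whether the injury effect differed between hemispheres was asked of all 22 libraries. None of the 5 passed the test of the interaction, where edgeR called 0.326% of 16587 genes. With the rat as a block, which pairs the hemispheres, 4.27% of all genes passed but none of the 5. Adcy1 then had a difference of injury effects (ipsilateral minus contralateral) of -1.88 on the log2 scale (SE 0.78, edgeR adjusted p = 0.203), and Unc5d one of -1.17 (SE 0.50, edgeR adjusted p = 0.221). Both had an unadjusted p under 0.05 in that fit, as did 19.5% of all genes.

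Adcy1 was lower in the ipsilateral than in the contralateral sample in 6 of 6 PBBI rats. The log2 differences (ipsilateral minus contralateral) were -1.94 in rat 81, -1.07 in rat 83, -5.64 in rat 85, -1.21 in rat 88, -0.22 in rat 90 and -1.31 in rat 96. In the sham rats they were 0.62 in rat 82, -0.36 in rat 84, -0.32 in rat 86, -0.71 in rat 91 and 2.33 in rat 94, lower in 3 of 5. The mean difference in PBBI was -1.90 ± 1.91 (SD, n = 6), with p = 0.0312 in a two-sided exact sign-flip test, the smallest p that 6 rats allow. The paired differences of PBBI and sham rats differed by -2.21 (two-sided exact permutation test, p = 0.0173, not adjusted for the other genes). Over all genes, 11.4% were lower ipsilaterally in all 6 PBBI rats.

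Within the PBBI rats, edgeR without the block called 3.56% of 15973 genes and none of the 5. With the block it called 10.3%, and the log2 fold change of Adcy1 was -1.63 (SE 0.57, edgeR adjusted p = 0.104). With the block and without rat 85, Adcy1 fell by 1.13 on the log2 scale (SE 0.22, edgeR adjusted p = 0.0132), in a fit that called 20.9% of all genes. Unc5d was lower ipsilaterally in 5 of 6 PBBI rats, with a mean difference of -0.71 ± 0.68 (SD, n = 6, p = 0.0625 in the exact sign-flip test), and Amer1 also in 5 of 6, with -1.14 ± 1.61 (SD, n = 6, p = 0.0938 in the same exact test). Mcc and Piezo2 were lower in 3 of 6 each. Within the sham rats none of the 5 passed, and edgeR called 0% of 15747 genes (0.298% had an unadjusted p under 0.05, and DESeq2 and voom called 0).

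**Figure D2:**
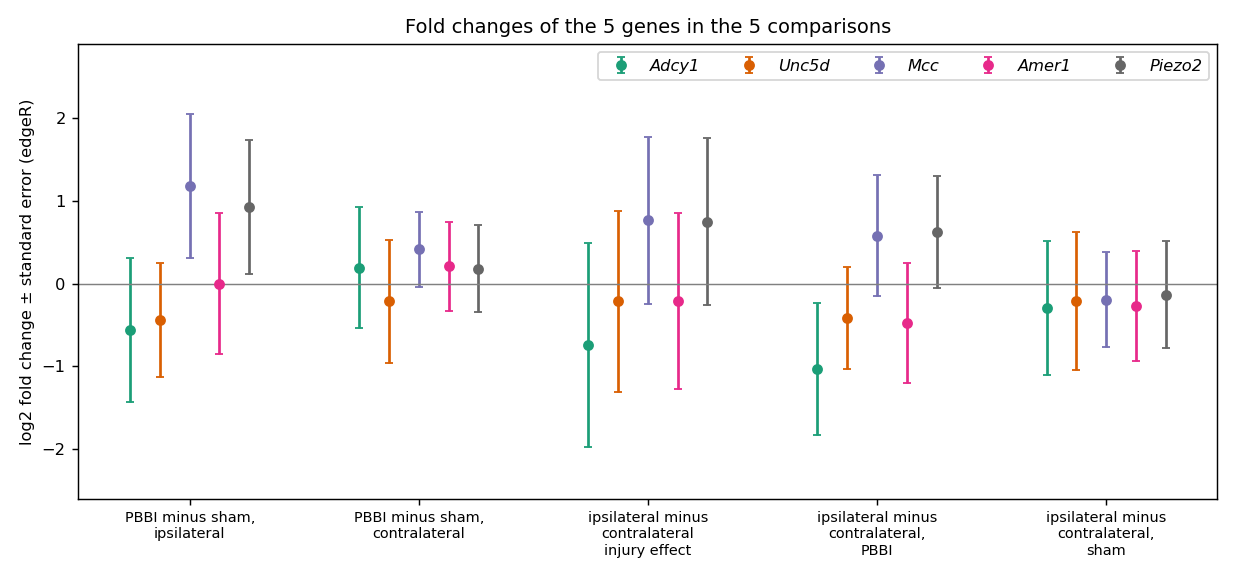
Log2 fold changes of the 5 genes (points, colored by gene) with standard errors (bars) from edgeR in the 5 comparisons on the horizontal axis. No gene passed an adjusted p of 0.05. The ipsilateral values run from -0.56 for Adcy1 to 1.18 for Mcc, and those within sham all lie between -0.30 and -0.13.

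The 5 genes varied together. In the 11 ipsilateral libraries, after subtraction of the mean of each treatment group, the 10 pairwise Pearson r of log2 CPM were between 0.783 (Unc5d with Mcc) and 0.963 (Mcc with Amer1), with a mean of 0.888. All 10 passed a two-sided exact permutation test within treatment groups (86400 orders), with adjusted p between 0.00162 and 0.00619 over the 20 relations tested. Spearman's rho was between 0.773 and 0.955, with adjusted p between 0.00266 and 0.0260 in the same exact test. When the 2 rats farthest from the median of the first gene of a pair were left out, r was between 0.594 (Adcy1 with Piezo2) and 0.881 (Unc5d with Amer1). Within the 6 PBBI rats alone r was between 0.805 and 0.978, and within the 5 sham rats between 0.615 and 0.967, given here as a description. Leaving out PBBI rat 85 alone gave a mean r of 0.801. The mean z-score of the 5 genes in the ipsilateral sample had an r of 0.654 with that in the contralateral sample of the same rat, so these p-values are not free of the choice of the genes on the contralateral samples.

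Contralaterally the 10 r were between 0.883 and 0.954, with a mean of 0.914, or 0.813 without sham rat 91. No test is given there, because a shared relation to REM sleep in those samples selected the genes. Over all 22 libraries, r ranged from 0.705 (Unc5d with Mcc) to 0.929 (Adcy1 with Amer1), and from 0.668 to 0.891 without the ipsilateral library of rat 85. With the means of the 4 groups removed it ranged from 0.729 to 0.953. The hemispheres of a rat are not independent, and these last values are descriptions.

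This co-variation was shared by many other genes. Among 13382 other genes averaging 0 or more on the log2 CPM scale, 1780 (13.3%) had an r of at least 0.8 over the 22 libraries with the mean z-score of the 5 genes, and 927 (6.93%) had an r of -0.8 or lower. Set against the mean of the other 4, the r of each gene was 0.951 for Amer1 (rank 42 of 16583 genes), 0.923 for Adcy1 (rank 229), 0.892 for Mcc (rank 527), 0.891 for Piezo2 (rank 803) and 0.839 for Unc5d (rank 1520). Between 10.48% and 12.1% of genes reached 0.8 against these means. The 5 named genes most like them were Xkr4 (r = 0.952), Tshz2 (0.925), Ptar1 (0.891), AABR07019086.1 (0.870) and Hrh2 (0.859), and the 5 least like them were F12 (r = -0.929), Aprt (-0.752), Cbr3 (-0.745), Phlda1 (-0.739) and B3gnt2 (-0.734), over all 22 libraries. Hrh2 encodes the histamine H2 receptor and F12 coagulation factor XII. Names were at hand only for genes that the study called, and all 5 at the upper end are on its list of genes falling with REM sleep. At the lower end, F12, Cbr3, Phlda1 and B3gnt2 are on its list of genes rising with REM sleep, and Aprt is on neither. The study chose both lists on the contralateral libraries, which are among the 22, so neither end is independent of that choice.

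Properties of the libraries moved with the 5 genes. The first principal component of all other genes, which held 40.4% of the variance, had an r of 0.937 with their mean z-score over the 22 libraries, and 0.874 without the ipsilateral library of rat 85. The slope of log2 CPM on log2 gene length, which says how strongly a library favored long over short genes, had an r of 0.896 (0.824 without that library). It was 0.306 in the ipsilateral library of rat 85, where the genes were lowest, and 0.934 in the contralateral library of sham rat 91, where their mean z-score was highest. Genes at r of at least 0.8 had a median length of 3138.5 bases, those at -0.8 or lower 1202 bases and all 13382 genes 2410.5 bases. Total counts had an r of 0.116 and the number of genes with a count one of 0.596. The slope was 0.306 to 0.922 in PBBI ipsilateral, 0.513 to 0.872 in sham ipsilateral, 0.544 to 0.841 in PBBI contralateral and 0.573 to 0.934 in sham contralateral. Regression gave the r that remained without the slope or the component, which does not measure their part in the co-variation. Both were computed from the other genes of the same libraries, many of which varied with the 5. With the slope regressed out of each gene the mean ipsilateral r was 0.503, and with the first principal component regressed out it was 0.404, with the 10 pairs between 0.0999 (Unc5d with Mcc) and 0.776 (Unc5d with Amer1). Contralaterally the corresponding means were 0.762 and 0.698. With the slope as a covariate in edgeR, Adcy1 fell by 1.59 on the log2 scale in ipsilateral PBBI samples (SE 0.49, adjusted p = 0.0458), in a fit that called 15.2% of all genes, and none of the other 4 passed. What set the slope of a library was not tested.

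**Figure D3:**
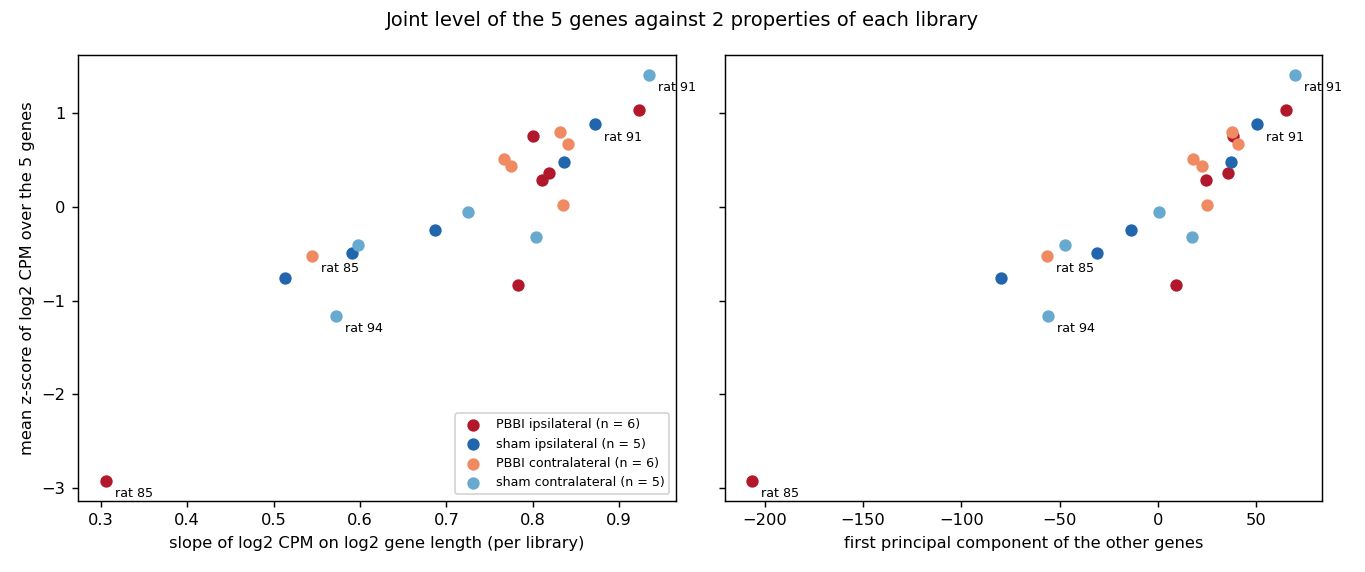
Mean z-score of log2 CPM over the 5 genes (vertical axis) in the 22 libraries against the slope of log2 CPM on log2 gene length in each library (left) and the first principal component of the other genes (right), colored by group. The r is 0.896 on the left and 0.937 on the right, with the ipsilateral library of rat 85 at the lower end and the contralateral library of rat 91 at the upper end.

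**Figure D4:**
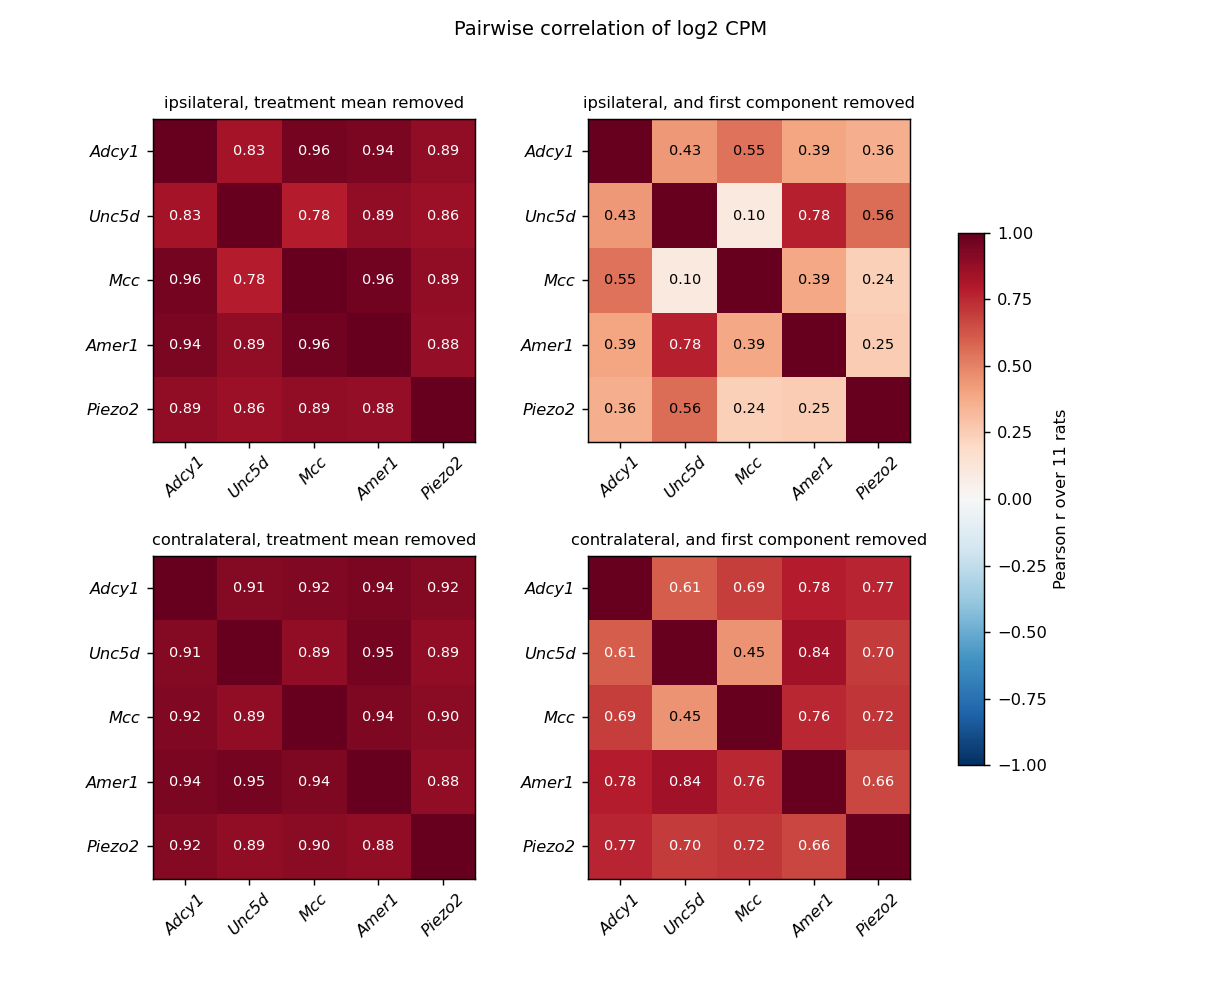
Pearson r over 11 rats between the log2 CPM of each pair of the 5 genes, ipsilaterally (top) and contralaterally (bottom), with the treatment mean removed (left) and also with the first principal component of the other genes removed (right). The mean r goes from 0.888 to 0.404 ipsilaterally and from 0.914 to 0.698 contralaterally.

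The level of a rat carried over between hemispheres for some of the genes. After subtraction of the group means, the ipsilateral value followed the contralateral value of the same rat for Adcy1 (r = 0.684, rho = 0.909, adjusted p = 0.00266 and 0.00347 in the exact permutation test within groups, n = 11 rats) and for Unc5d (r = 0.799, rho = 0.845, adjusted p = 0.00334 and 0.00660 in the exact test). Leaving out the 2 rats farthest from the median gave r = 0.911 for Adcy1 and 0.701 for Unc5d. Amer1 passed by r (0.687, adjusted p = 0.0145, exact test) but not by rho (0.655, adjusted p = 0.0631, exact test), and its r was 0.383 without 2 rats. Mcc (r = 0.567, adjusted p = 0.0635, exact test) and Piezo2 (r = 0.328, adjusted p = 0.133, exact test) did not pass by r or rho, and for Mcc the r was -0.15 without the 2 rats farthest from the median. The length slope of a library also followed that of the other hemisphere of the rat, with r = 0.845 over the 11 rats.

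Ratios between genes of the same library remove what scales both alike. Of the 10 ratios among the 5 genes, 1 separated PBBI from sham ipsilaterally and 0 did so contralaterally. Ipsilaterally there were 2 without PBBI rat 85, where Unc5d over Mcc was added, and 2 without PBBI rat 88, where Adcy1 over Piezo2 was added. The ratio that separated the groups with all rats, Adcy1 over Mcc, was computed after the levels had been seen and is given as a description without a test. Its log2 value ipsilaterally was 2.38 in PBBI rat 81, 3.65 in rat 83, 3.16 in rat 85, 3.43 in rat 88, 3.71 in rat 90 and 2.402 in rat 96, and 4.43 in sham rat 82, 5.12 in rat 84, 5.31 in rat 86, 5.64 in rat 91 and 3.997 in rat 94. All 6 PBBI rats lay below all 5 sham rats, which also held without rat 85, where Mcc had 0 counts and the ratio depends on the prior count. The means were 3.12 ± 0.60 (SD, n = 6) and 4.90 ± 0.67 (SD, n = 5), a difference of -1.78. Contralaterally the means were 4.68 ± 0.68 (SD, n = 6) and 4.45 ± 1.02 (SD, n = 5), with overlapping ranges. As background, 1.84% of 16586 genes were higher relative to Adcy1 in all 6 ipsilateral PBBI samples than in all 5 sham samples, as Mcc was, and 0% were lower relative to it in that way. Such a ratio shows unequal levels of the pair, and not which of them changed.

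**Figure D5:**
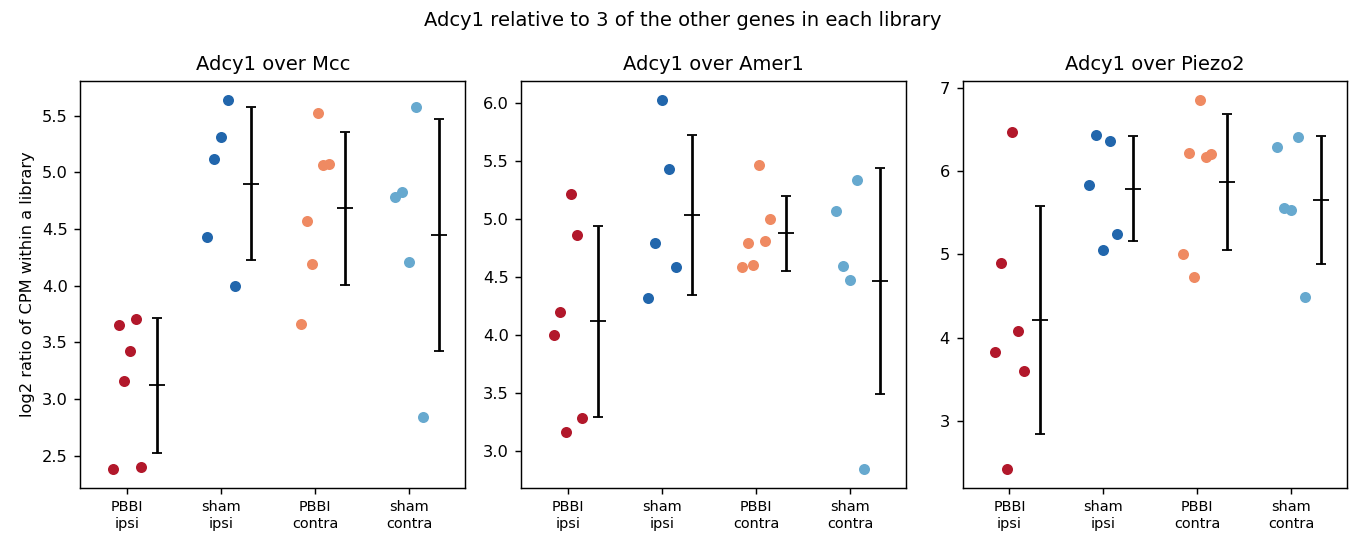
Log2 ratio of the CPM of Adcy1 to that of Mcc, Amer1 and Piezo2 in each library (points) of the 4 groups, with mean ± SD (black bars). For Mcc the 6 ipsilateral PBBI libraries lie between 2.38 and 3.71, below all 5 ipsilateral sham libraries, which lie between 3.997 and 5.64. For Amer1 and Piezo2 the groups overlap.

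The other genes of the study's REM lists were read beside the 5. With the 5, the list of falling genes used here is longer than the number the paper's text gives. Of the 21 others falling with REM sleep, 20 were tested ipsilaterally, and 1 passed, Slc6a5, a glycine transporter, with 11.4 CPM in PBBI and 3.90 CPM in sham (log2 fold change 1.55, SE 0.39, edgeR adjusted p = 0.0398). This is 1 of 20 beside the 4.68% of all genes, and it passed in only 2 of the 11 fits that left out a rat, those without PBBI rat 83 or 85 (adjusted p between 0.0164 and 0.103 over the 11 edgeR fits). Their median log2 fold change was 0.09 ipsilaterally and 0.08 contralaterally, against -0.02 and -0.01 over all genes. Contralaterally the median lay between -0.072 and 0.77 when a rat was left out, and it was highest without sham rat 91, when all 20 were higher and 0 passed. Of the 15 others that reached a mean log2 CPM of 0, 6 (40%) had an r of at least 0.8 with the mean z-score of the 5 genes. Over all 13382 genes at that level, 13.3% reached it. The 18 genes rising with REM sleep had a median log2 fold change of -0.71 contralaterally, with 18 of 18 lower and 0 past the threshold. Without sham rat 82 the median was -0.37, with 16 of 18 lower, and without sham rat 94 it was -0.45. Their r with the 5 genes lay between -0.93 and 0.22. The study chose both lists, and the 5 genes, on the contralateral samples, so their directions there are not independent. Their r with the 5 genes included those samples and is not independent either.

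The 18 include several genes of striatal projection neurons. Adora2a, Syndig1l and Gpr6 had ipsilateral log2 fold changes of -1.34, -1.77 and -1.59, none past the threshold. A list of 8 striatal markers, none at 0 in any library, summed to 39.3 to 139 CPM in PBBI ipsilateral, 68.6 to 260.1 in sham ipsilateral, 75.3 to 174 in PBBI contralateral and 74.2 to 496 in sham contralateral. Ipsilaterally, no relation of the 5 genes to the mean z-score of these markers passed the exact permutation test (r between -0.34 and 0.07, adjusted p between 0.511 and 0.836), though r was between -0.79 and -0.49 without the 2 rats farthest from the marker median. Contralaterally r was between -0.76 (Piezo2) and -0.52 (Unc5d), as a description. The study chose most of these markers on those samples, several as rising with REM sleep, and the 5 genes as falling. The negative r there are therefore no independent evidence. The part of striatal tissue in the levels of the 5 genes was otherwise not tested.

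The labelled cortex was checked against 13 neuronal markers, all counted in every library. Their sum was 1456 to 3081 CPM in PBBI ipsilateral, below the 3689 to 4178 CPM of sham ipsilateral, and 3166 to 3901 CPM and 3152 to 4617 CPM in the contralateral PBBI and sham samples. These markers, and those of the other cell types, could be named because the study called them, so their counts and sums in PBBI against sham are no independent evidence. All 13 were lower in ipsilateral PBBI samples and 3 passed, beside 4.68% of all 16104 genes, whose median log2 fold change was -0.02. Leaving out a rat gave between 0 and 8, and it was 0 when the rat left out was 81 or 90 (PBBI) or 94 (sham). Cckbr, a cholecystokinin receptor, was among the 3 at a log2 fold change of -1.47 (edgeR adjusted p = 0.0217), and passed in 4 of the 11 fits without a rat. The mean z-score of the neuronal markers had an r of 0.0547 with that of the 5 genes over the 22 libraries, with no group means removed. Whether the markers and the 5 genes moved together within groups was not tested. For the 4 astrocyte, 4 oligodendrocyte, 6 microglia and macrophage and 3 endothelial and mural markers that r was 0.394, -0.17, -0.19 and 0.707. The summed microglia and macrophage markers were 339 to 838 CPM in PBBI ipsilateral and 116 to 244 CPM in sham ipsilateral. Of these 6 markers, 5 were higher and 1 was lower in ipsilateral PBBI samples. The other lists were also split, with 1 astrocyte marker higher and 3 lower, and 1 endothelial or mural marker higher and 2 lower. Of the 4 oligodendrocyte markers, 3 were lower in each of the 11 fits that left out a rat.

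The pathways of the 5 genes were read from other genes that could be named, nearly all of which had a name because the study called them in the ipsilateral samples. Their ipsilateral counts are therefore no independent evidence. Of 11 genes of cyclic nucleotide and calmodulin signaling, read beside Adcy1, 1 rose and 3 fell ipsilaterally, where 4.68% of all 16104 genes passed. Leaving out a rat gave between 1 and 3 that rose and between 0 and 6 that fell, with 0 without sham rat 91 or 94 and 6 without PBBI rat 83 or 85. Pde6b, a subunit of a cyclic GMP phosphodiesterase, rose from 0.190 CPM in sham to 2.86 CPM in PBBI (log2 fold change 3.90, SE 0.49, edgeR adjusted p = 0.00183). Camkk2, a kinase that activates calmodulin-dependent kinases, fell from 33.4 to 12.3 CPM (-1.44, SE 0.32, edgeR adjusted p = 0.0235). Camk2n1, an inhibitor of the kinase CaMKII, fell from 659 to 271 CPM (-1.28, SE 0.31, edgeR adjusted p = 0.0337). Of these, Pde6b passed in all 11 fits without a rat, Camkk2 in 5 and Camk2n1 in 4. The median of the 11 was -0.94, against -0.02 over all genes. Camk2n1 and Camk4, both on this list, were also among the neuronal markers.

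Of 8 genes of Wnt signaling, the pathway of Mcc and Amer1, 7 were tested ipsilaterally. All 7 were higher in PBBI and 2 passed, beside 4.68% of all 16104 genes. Their median log2 fold change was 1.53, against -0.02 over all genes. Between 1 and 6 of them passed when a rat was left out, 1 without sham rat 84 or 86, 5 without PBBI rat 83 and 6 without PBBI rat 85. Myc, a target of the pathway, rose from 2.79 to 19.9 CPM (2.84, SE 0.45, edgeR adjusted p = 0.00558). Sp5 (2.28, edgeR adjusted p = 0.0636) and the ligand Wnt2b (2.02, edgeR adjusted p = 0.107) did not pass. Of 5 mechanically gated and related channels, 1 passed ipsilaterally, Piezo1, the close relative of Piezo2, which rose from 4.46 to 21.5 CPM (2.27, SE 0.36, edgeR adjusted p = 0.00558). Trpv4 had a log2 fold change of 1.60 and Kcnk10 one of 1.33, and neither passed. In all, 3 of the 5 channels were higher and 2 were lower in PBBI. Without PBBI rat 83 or 85, 3 of the 5 passed as higher, and without rat 83 1 also passed as lower. Without each of the other 9 rats 1 passed as higher. None of the genes in these 3 lists passed contralaterally.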

How the data were processed

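Cortical RNA of 11 rats (6 PBBI, 5 sham) was analysed in 22 libraries, grouped by the treatment, hemisphere and animal number in the labels. The authors depleted ribosomal RNA, made stranded libraries, sequenced both ends, aligned reads with STAR 2.4.2a and counted them on genes of Ensembl Rnor 6.0 with featureCounts 1.4.3-p1. They deposited raw counts, which the authors did not normalize. Even values made up 60.8% to 69.6% of the counts from 1 to 19 in each library, so counts may not be independent molecules, and floors of 3 counts cover counting error only. Total counts were between 42085341 and 63412426. How strand and multiply aligned reads were treated is not given in the sources used here.

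The 5 genes and all lists were chosen with earlier results of these data known. Names came from the study's gene lists (1822 identifiers). The named genes are the 5 members, at most 3 of each other list with the largest ipsilateral log2 fold change, and the 5 named genes most and least correlated with the members. Genes were tested with edgeR 4.0.16 (R 4.3.3, TMM, filterByExpr, quasi-likelihood, Benjamini-Hochberg over all genes, threshold 0.05). Alternatives used DESeq2 1.42.0, limma 3.58.1 voom with quality weights, other size factors and filters, all 22 libraries in the same fit, the rat as a block, and leaving out each rat. The length slope as a covariate, the block without rat 85, the paired exact tests, the regressions on the length slope and the first principal component, and the ratios were added after the data were seen. Log2 CPM used a prior count of 2, and standard errors are the log2 fold change divided by the square root of F. Exact permutation tests used Python 3.11.15. Tests were tried on simulated data first.

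An animal number marks the pair of hemispheres of 1 rat. The correlation of their deviations from the group mean across genes was between 0.246 and 0.758 in the 11 rats, and lower on average with other rats. Of the 11 rats, 9 correlated best with their own other hemisphere, and sham rats 82 and 84 did not. Replicates of a group were not duplicates, with a chi-square per gene of at least 96.2 in the 50 pairs. P-values of tests within a hemisphere measure the spread between rats. Those of the paired and blocked tests measure the spread of the differences between the hemispheres of a rat. The fits across hemispheres without the block treated the libraries of a rat as independent samples. No coordinates or sequences are given, since no annotation of this build was used here.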

Additional observations from a re-analysis of the deposited data

Results flagged for a closer look

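In the contralateral sham group, 1 library lay far above the other 4 in CPM for each of the 5 genes. On the CPM scale these are the only ones of the 20 combinations of gene and group to do so. The library was that of rat 91, with 171 CPM of Adcy1, 23.9 of Unc5d, 3.55 of Mcc, 4.196 of Amer1 and 1.98 of Piezo2. The gap to the next rat was between 78.2% and 87.1% of the range of the group. About 1 in 20 groups would be marked by chance if values were normally distributed, which CPM with such a spread need not be. On the log2 scale the gap was a smaller share of the range. There Adcy1 had 7.42 in rat 91, 4.77 in the next rat and 1.95 in the lowest. The 5 genes are not independent of each other, so these are closer to 1 observation than to 5. Of all 16587 genes, 2.85% had rat 91 as far above the other contralateral sham rats. The same library had the highest length slope of the 22 (0.934). Why it stands apart was not tested.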

How the results depend on the processing

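None of the 5 genes passed in the 5 comparisons with RLE size factors, other filters, DESeq2 without its prior or any of their rats left out, nor ipsilaterally or contralaterally with the DESeq2 prior or all 22 libraries in the same fit, nor in the other 3 comparisons with the block alone. In 3 other fits 1 gene was called each time: Mcc ipsilaterally with voom and quality weights, and Adcy1 ipsilaterally with the length slope as a covariate (-1.59) and within PBBI with the block without rat 85 (-1.13). Of 393 log2 fold changes under alternatives 35 changed sign, none of them past the threshold before or after. Ipsilaterally voom gave 0.15 for Adcy1, 0.022 for Unc5d and 0.57 for Amer1, and Amer1 was 0.015 with RLE size factors and DESeq2 and 0.0096 with the DESeq2 prior. Contralaterally Unc5d was 0.78 with voom and 0.13 with the slope. Piezo2 was -0.20 for the interaction and -0.070 within PBBI with the block, and -0.13 for the interaction with the slope. Within sham the block gave 0.25 for Adcy1, 0.45 for Unc5d and 0.13 for Piezo2, and voom 0.14 for Unc5d. The block alone changed no call of these genes, and the filter on 10 counts in every library gave no value for genes with fewer in a library. Leaving out each rat gave ipsilateral ranges of -0.90 to 0.16 for Adcy1, -0.79 to 0.082 for Unc5d and -0.27 to 0.38 for Amer1, with the upper end without sham rat 91. Contralaterally the ranges were -0.18 to 1.53 for Adcy1, -0.49 to 1.36 for Unc5d, -0.00013 to 1.08 for Amer1 and -0.069 to 1.12 for Piezo2. The interaction ranged from -1.29 to 0.16 for Unc5d and from -0.70 to 0.22 for Amer1. Within sham the ranges were -0.46 to 0.31 for Adcy1, -0.58 to 0.83 for Unc5d, -0.52 to 0.21 for Mcc, -0.69 to 0.20 for Amer1 and -0.36 to 0.37 for Piezo2. The cause of these shifts was not tested. The mean pairwise r was 0.743 ipsilaterally and 0.945 contralaterally on linear CPM and 0.869 contralaterally by Spearman. It was 0.503 and 0.762 after regression on the length slope, and 0.404 and 0.698 after regression on the first principal component. Leaving out each rat gave 0.801 to 0.910 ipsilaterally and 0.813 to 0.927 contralaterally. Over all genes the ipsilateral calls were 753, and 1639 with DESeq2, 1628 with its prior, 5014 with voom, 1655 with all 22 libraries, 2441 with the slope and 316 to 2186 without each rat. Contralaterally 0 became 3 with DESeq2, 1 with voom and 0 to 1 without each rat. For the interaction 54 became 353 with DESeq2, 1663 with voom, 708 with the block, 268 with the slope, 1358 with the block without rat 85 and 0 to 255 without each rat. Within PBBI 568 became 1535 with DESeq2, 3695 with voom, 1646 with the block, 3356 with the block without rat 85 and 1 to 1149 without each rat. Depth limits Piezo2, with 1 to 233 counts per library, more than Adcy1, with 12 to 10569.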
